A study of Macaca mulatta with 95 samples.

Results

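Outer cells of the middle blastocyst of the rhesus macaque (Macaca mulatta) were set against inner cells of the same stage. The comparison holds 5 outer and 4 inner cells, 9 of the 95 single cells of the series, and each cell was sequenced as its own library. The cells were chosen by title alone: all 9 titles begin with the letter B, which the labels do not explain, and 8 inner cells of the same stage with the letters G (4 cells) and H (4 cells) were left out. Outer cells are those that carried the fluorescent membrane dye PKH2 after the whole embryo was stained, and inner cells are those that did not. Both came from embryos at about day 5.5, when the cavity takes up a large part of the embryo. All embryos were fertilized outside the body from eggs of hormone-stimulated females and were grown in HECM-9 medium with fetal bovine serum, and no genotype, transgene or drug treatment is named in the labels. The labels name no embryo, mother or culture for a cell, so cells of 1 embryo cannot be told from cells of several.

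At the blastocyst stage the outer cells form the trophectoderm, the epithelium that pumps fluid into the cavity and later builds the placenta. The inner cells form the inner cell mass, which sorts into the epiblast, the source of the fetus, and the hypoblast, the source of the yolk sac lining. Trophectoderm is known for GATA2, GATA3 and simple keratins, epiblast for NANOG, NODAL and GDF3, and hypoblast for SOX17, GATA4 and basement membrane proteins.

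Values are RPKM (reads per kilobase of gene and megaread), a unit inferred from the values. A difference is the mean log2(RPKM + 1) of the outer cells minus that of the inner cells, so 1 unit is 2-fold, and it understates the change of genes near 0. A gene counted as measured at 5 RPKM or more in at least 3 of the 9 cells, which 3550 of the 16049 listed genes reached. A gene high in only 1 group passed this filter through that group, so its direction follows from the filter. With no embryo named, each side is 1 sample: no test was made, and each SD is the spread over cells. Reads recovered from the value steps numbered 7.24 to 9.99 megareads per cell, so no cell was shallow, and between 2830 and 4391 genes per cell reached 1 RPKM. Outer cells 02, 03 and 06 had 2830, 2980 and 2998 such genes, below every inner cell (3470 to 4391). Outer cells 01 and 07 had 3932 and 3854, within the inner range. The part of this in the counts of lower genes and of markers below was not tested. Of the measured genes, 666 were at least 2-fold higher in outer cells (18.8%) and 1266 at least 2-fold lower (35.7%). Both shares are the background for the counts of each gene list below. The median difference over all measured genes was -0.40 and the median spread over cells was 2.19 log2 units, so a 2-fold difference is small against the spread. Every outer cell lay above every inner cell in 20 genes (0.563%) and below in 92 genes (2.59%), and such genes are called separated here. How many genes would separate through the ordering of 9 cells alone was not computed, so both counts and the separated genes named below are descriptions only. The balance depended on the summary: the ratio of mean RPKM gave 1001 genes higher and 719 lower by 2-fold, and median-of-ratios size factors gave 45 separated higher and 59 separated lower.

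Not every cell carried the markers of the lineage known for its position. The share of the markers of each lineage at 5 RPKM or more was counted per cell over 21 trophectoderm, 19 epiblast and 20 hypoblast genes listed in the table. Outer cells 01, 06 and 07 had 15, 11 and 13 of the trophectoderm markers, whereas outer cells 02 and 03 had 7 each. Inner cells 02, 03, 05 and 06 had 10, 7, 11 and 8 of them, so this count overlapped between outer and inner cells. Inner cells 02, 03 and 06 had 16, 16 and 13 of the epiblast markers, whereas inner cell 05 had 5, within the 3 to 6 of the outer cells. Hypoblast markers were most frequent in outer cells 03 and 01 (10 and 8) and in inner cell 05 (9). Outer cells 02 and 03 thus stand apart from the other outer cells in their count of trophectoderm markers. Inner cell 05 stands apart from the other inner cells in its count of epiblast markers. Hypoblast markers did not set outer cell 02 (7) apart from outer cell 01 (8). The results below are given with outer cells 02 and 03 and inner cell 05 and, where they bear on a result, without them. Since they were set aside for their lineage markers, the lineage lists move without them by construction, and those values are descriptions only.

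**Figure D1:**
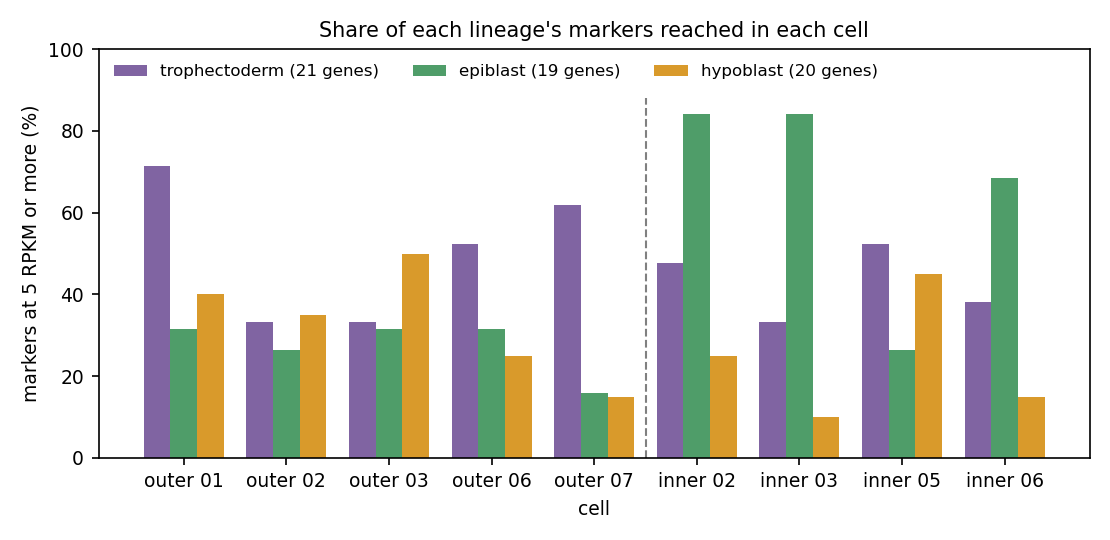
Share (%) of the trophectoderm, epiblast and hypoblast markers in the table that reached 5 RPKM or more in each of the 5 outer cells (left of the dashed line) and the 4 inner cells. Epiblast markers are frequent in inner cells 02, 03 and 06 (16, 16 and 13 of 19) and infrequent in inner cell 05 and in all outer cells (3 to 6 of 19).

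Many epiblast genes, VENTX, FGF4, GDF3 and NODAL among them, were close to 0 in the outer cells and high in 3 of the 4 inner cells, whereas POU5F1 and DPPA2 were high in all 9 cells. Of 14 measured epiblast markers, 11 were lower in outer cells by at least 2-fold, 2 were higher and 6 were separated, all of them lower. The median difference of the 14 was -3.79, against -0.40 over all measured genes. VENTX, PRDM14, FGF4, GDF3 and NODAL reached 5 RPKM only in inner cells 02, 03 and 06, so the filter fixed their direction. With no filter, 13 of 19 epiblast markers were lower by 2-fold and 2 higher, with a median of -1.997. Of the 10160 genes then counted, 18.8% were lower and 12.6% higher. VENTX, a homeobox transcription factor, had 1.18, 0.646, 0.156, 0.261 and 0.436 RPKM in outer cells 01, 02, 03, 06 and 07, against 225, 374, 3.47 and 396 RPKM in inner cells 02, 03, 05 and 06, a difference of -6.21. Values below are given in the same order of cells. All outer cells were below all inner cells, but inner cell 05 lay close to the outer cells and far from the other inner cells. PRDM14, a zinc finger repressor of primordial germ cells and pluripotent cells, had 0.164, 0.0228, 0, 0.0368 and 0.109 RPKM in outer cells, against 64.5, 37.3, 0.220 and 108 RPKM in inner cells. The separation there rests on 11 recovered reads in inner cell 05, against at most 5 in an outer cell.

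**Figure D2:**
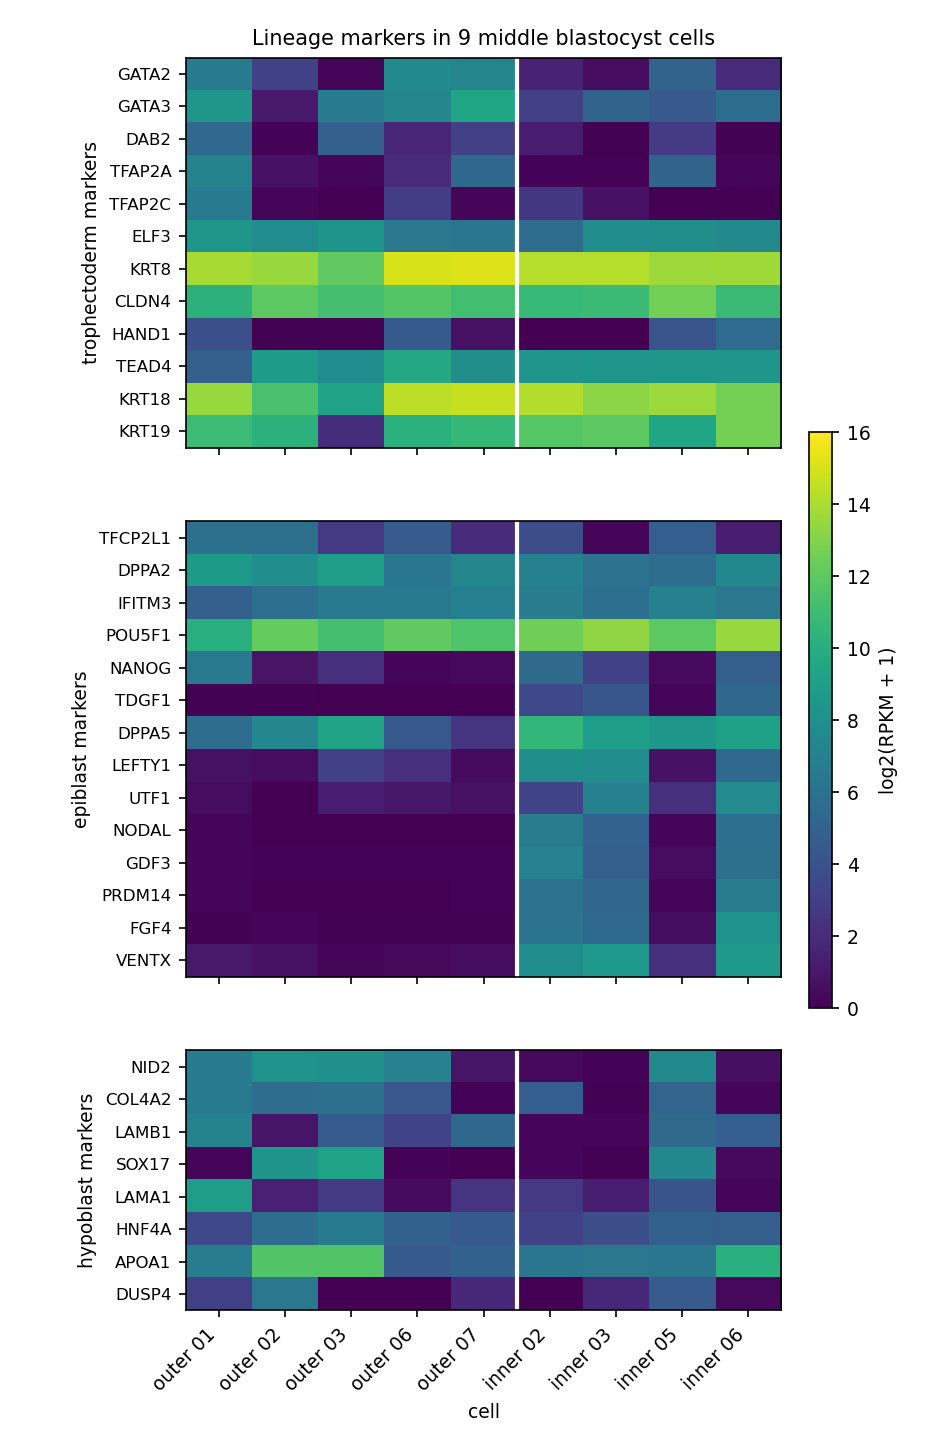
Levels of 12 of the 13 measured trophectoderm markers (top) and of each measured epiblast (middle, 14) and hypoblast marker (bottom, 8) in the 5 outer cells (left of the white line) and the 4 inner cells, as log2(RPKM + 1) in colour, with genes ordered by their difference. The lower rows of the epiblast block are dark in all outer cells and in inner cell 05 and bright in inner cells 02, 03 and 06, whereas KRT8 and KRT18 are bright in all 9 cells.

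The secreted factors of the epiblast followed the same cells. FGF4, the ligand through which epiblast cells signal to the hypoblast in the mouse, had 0.0582, 0.202, 0.0553, 0.0652 and 0.0772 RPKM in outer cells, against 67.1, 43.0, 0.496 and 286 RPKM in inner cells, a difference of -4.95. GDF3, a TGF-beta family ligand, had 0.0977 to 0.174 RPKM in outer cells, against 134, 28.1, 0.425 and 59.9 RPKM in inner cells, a difference of -4.43. In both genes inner cells 02, 03 and 06 were high, and inner cell 05 was above the outer cells by a fraction of an RPKM. NODAL, the ligand that maintains epiblast identity, had at most 0.234 RPKM in outer cells, against 108, 32.2, 0.161 and 55.5 RPKM in inner cells, and inner cell 05 fell among the outer cells. Of the 6 measured genes of the Nodal pathway, 4 were lower in outer cells and 0 higher, against 35.7% and 18.8% of all measured genes. This list shares members with the epiblast markers, NODAL and LEFTY1 among them, so its count is not a separate result. LEFTY1, a secreted Nodal inhibitor, had 0.657, 0.426, 7.00, 3.49 and 0.378 RPKM in outer cells, against 254, 225, 0.720 and 43.8 RPKM in inner cells. FOXH1, the DNA-binding partner of the Nodal-activated SMAD proteins, was at 61.5 to 1057 RPKM in outer cells and at 141 to 452 RPKM in inner cells, with no cell near 0.

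The core pluripotency factors POU5F1, NANOG and SOX2 each showed a different pattern. POU5F1 (OCT4), the central transcription factor of pluripotency, had 1031, 4832, 2442, 4433 and 3074 RPKM in outer cells, against 5793, 10470, 3943 and 11660 RPKM in inner cells, a difference of -1.39. Only inner cell 05 fell within the range of the outer cells, and no cell lacked the transcript. NANOG had 88.9, 0.810, 3.54, 0.226 and 0.268 RPKM in outer cells, against 45.7, 7.82, 0.355 and 27.1 RPKM in inner cells, so that its highest value was in outer cell 01. SOX2 was at most 0.0371 RPKM in outer cells, against 10.4, 9.09, 0.262 and 0.151 RPKM in inner cells, and did not reach the limit to count as measured. The 2 epiblast-list genes that were higher in outer cells were TFCP2L1 and DPPA2, at 3.07 to 60.2 and 76.3 to 471 RPKM in outer cells, against 0.238 to 26.6 and 52.0 to 173 RPKM in inner cells.

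Genes of naive pluripotency, the state of the early epiblast, were mostly lower in outer cells: 7 of 12 measured were lower by 2-fold, 3 higher, and the median was -1.90. KHDC3L, a component of the subcortical maternal complex of the egg that is counted among naive genes too, had 24.7, 4.26, 222, 5.35 and 5.11 RPKM in outer cells, against 4570, 1559, 26.8 and 1377 RPKM in inner cells, a difference of -5.47. Inner cell 05 fell within the outer range. TLE6, another component of that complex, had 0.104 to 0.486 RPKM in 4 outer cells and 72.1 RPKM in outer cell 07, against 50.9, 54.8, 85.8 and 385 RPKM in inner cells, and inner cell 05 was here among the high cells. Both belong to the oocyte list, of which 3 of 4 measured genes were lower in outer cells and 0 higher. SOCS1, an inhibitor of cytokine signalling through JAK and STAT proteins, was separated, at 0 to 0.228 RPKM in outer cells, against 54.2, 109, 0.799 and 96.4 RPKM in inner cells. The 7 measured genes of the primed state gave 3 higher and 1 lower, with CD24, a surface glycoprotein, at 311, 18.1, 1.37, 132 and 114 RPKM in outer cells, against 1.09, 0.347, 93.3 and 0.298 RPKM in inner cells.

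GATA2, GATA3 and TFAP2A were higher in outer cells on average, TEAD4 was not, and the groups overlapped for all 13 measured trophectoderm markers. Of these, 6 were higher in outer cells by at least 2-fold and 1 was lower, with a median difference of 0.21 that was near 0 when 20 RPKM was asked for in 3 cells. Without outer cell 01 the counts were 4 higher and 3 lower. GATA3, a zinc finger factor that drives trophectoderm genes, had 359, 1.20, 90.8, 170 and 670 RPKM in outer cells, against 7.15, 35.4, 20.8 and 53.7 RPKM in inner cells, a difference of 1.98. All outer cells except outer cell 02 lay above all inner cells. GATA2, its close relative, had 102, 7.89, 0.229, 189 and 153 RPKM in outer cells, against 1.87, 0.447, 33.0 and 2.75 RPKM in inner cells, a difference of 2.73. Outer cells 02 and 03 were low and inner cell 05 was the highest inner cell, and without outer cells 02 and 03 the differences were 3.83 for GATA3 and 4.91 for GATA2.

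TFAP2A, a factor of trophoblast and surface ectoderm, was highest in outer cells 01 and 07 and inner cell 05: it had 139, 0.714, 0.160, 2.85 and 39.6 RPKM in outer cells, against 0.0998, 0.0992, 34.2 and 0.219 RPKM in inner cells. CDX2, a homeobox factor of mouse trophectoderm, was above 5 RPKM in 1 of the 9 cells, outer cell 07, at 85.2 RPKM. TEAD4, the DNA-binding partner of YAP1 upstream of these genes in the mouse, had 27.5, 430, 222, 824 and 240 RPKM in outer cells, against 322, 344, 351 and 339 RPKM in inner cells. The inner cells were nearly alike and lay inside the outer range, and the difference of -0.61 became 0.13 without outer cell 01. YAP1 itself was at most 0.548 RPKM in outer cells and at most 1.71 RPKM in inner cells.

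The simple keratins, the intermediate filaments of the trophectoderm epithelium, did not follow position. KRT8 had 15587, 11800, 4348, 33808 and 36261 RPKM in outer cells, against 19308, 19130, 12658 and 13344 RPKM in inner cells, a difference of -0.00. KRT18, its partner in the filament, had 11852, 2665, 606, 21738 and 24818 RPKM in outer cells, against 18218, 9577, 12456 and 6501 RPKM in inner cells, a difference of -0.78. Outer cells 06 and 07 were the highest and outer cell 03 the lowest for both genes, and the inner cells lay between. Without outer cells 02 and 03 the differences were 0.76 for KRT8 and 0.77 for KRT18, still under 2-fold. KRT19 had 2025, 1250, 3.25, 1201 and 1630 RPKM in outer cells, against 3526, 4009, 690 and 6438 RPKM in inner cells, a difference of -2.61 that was -0.92 without outer cell 03. Inner cells 02, 03 and 06 held these keratin transcripts at 3526 RPKM or more beside their epiblast transcripts. KRT8 and KRT18 have near-identical processed copies in primate genomes, so how the authors' counting shared out reads among copies could affect their levels. Over the 9 measured genes of simple keratins, plakins and their partners, 2 were higher in outer cells and 2 lower, with a median of -0.00 that became 1.26 without outer cells 02 and 03. The counts were 0 higher and 4 lower without outer cell 01, and 4 higher and 0 lower without outer cell 03.

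**Figure D3:**
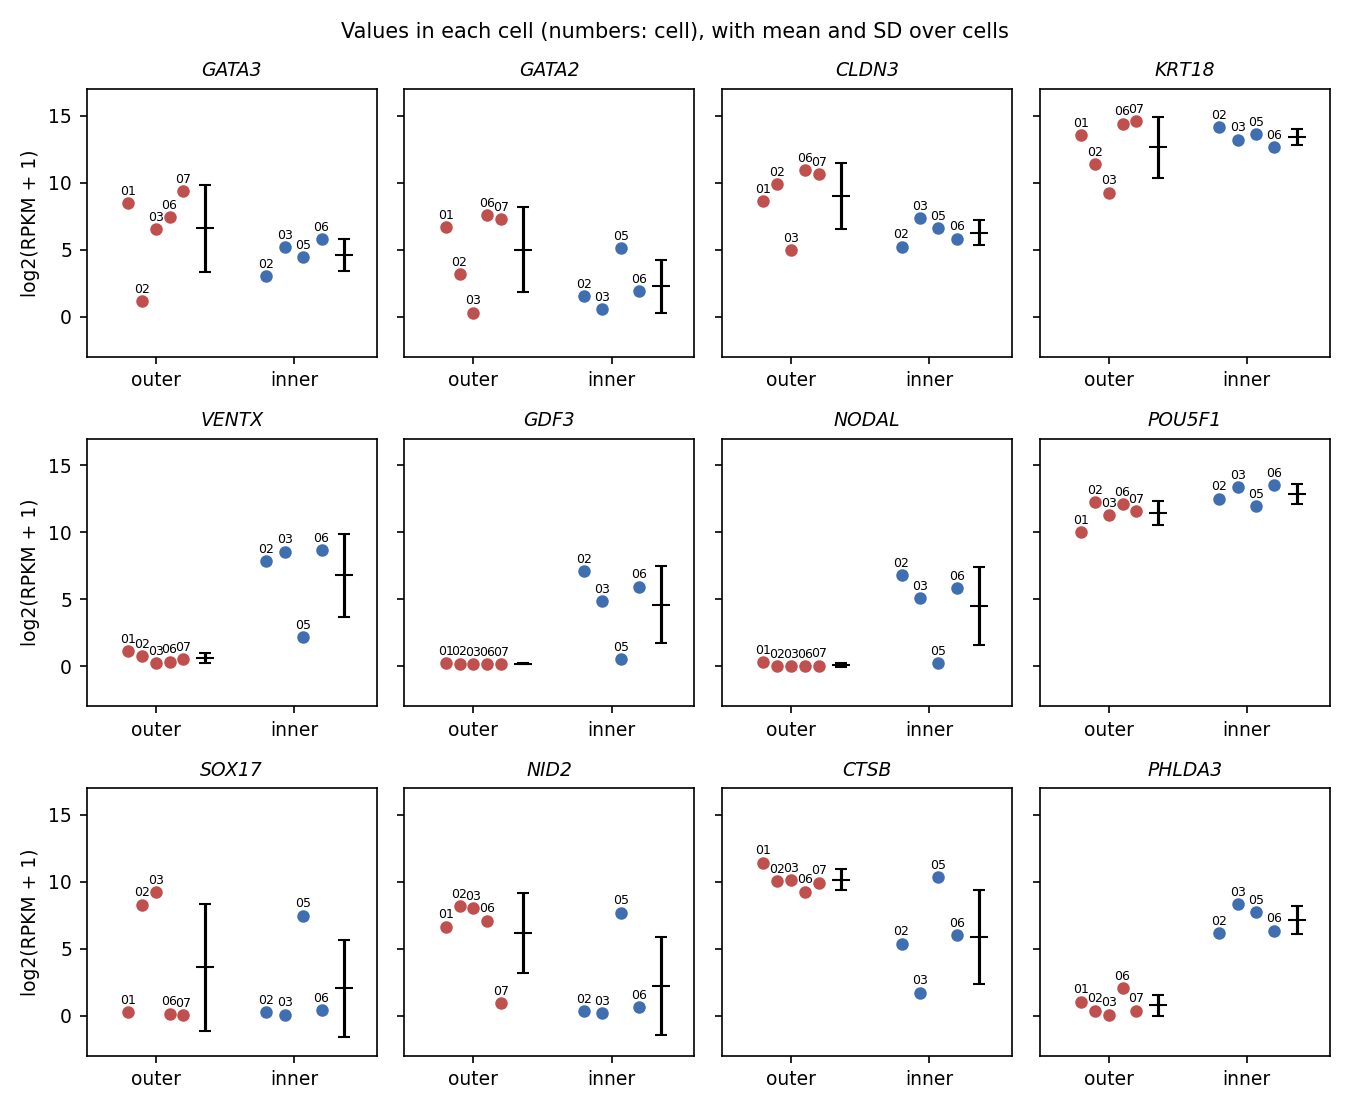
Values of 12 genes in each outer cell (red, left) and inner cell (blue, right) as log2(RPKM + 1), with the cell number above each point and a black mark for the mean with its SD over cells. GDF3 and NODAL are near 0 in all outer cells and in inner cell 05. VENTX is at most 1.18 RPKM in outer cells and low but higher in inner cell 05 (3.47 RPKM). KRT18 and POU5F1 are high in all 9 cells, and SOX17 is high in outer cells 02 and 03 and in inner cell 05.

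Inner cells of this letter differed in keratin level from the inner cells of the same stage with other letters. KRT18 was at 6501 RPKM or more in the inner cells of letter B, against a median of 602 and a highest value of 1582 RPKM in the 4 cells of letter G and a median of 147 and a highest value of 1304 RPKM in the 4 cells of letter H. EPCAM, an epithelial adhesion protein, differed the other way: it was at 2.82 to 7.74 RPKM in the inner cells of letter B, against 182 to 1023 RPKM in letter G and 132 to 652 RPKM in letter H. VENTX and NANOG had medians of 49.2 and 67.8 RPKM in letter H and of 0.0527 and 0.778 RPKM in letter G, and GATA4 and SOX17 medians of 122 and 72.3 RPKM in letter G. Letter cannot be told apart from embryo, day of collection or batch, and no outer cell of this stage has another letter.

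Of 8 measured hypoblast markers, 5 were higher in outer cells by 2-fold and 0 lower, with a median of 1.35. Single cells moved this count: 2 were higher without inner cell 03 (median 0.84), 3 without inner cell 02 (median 0.84) and 7 without inner cell 05 (median 2.18). SOX17, a transcription factor of the endoderm, had 0.210, 308, 600, 0.101 and 0.0199 RPKM in outer cells, against 0.180, 0.0455, 176 and 0.332 RPKM in inner cells. Its transcripts were thus in 3 cells, outer 02 and 03 and inner 05, and the difference of 1.54 became -1.90 without outer cells 02 and 03. GATA4, another endoderm factor, was above 1 RPKM only in outer cell 03, at 309.6 RPKM, and PDGFRA, a growth factor receptor of early hypoblast, only in outer cell 02, at 14.0 RPKM. GATA6 is not in the table used here. APOA1, the main protein of high density lipoprotein and a product of yolk sac endoderm, had 107, 3250, 3279, 22.1 and 29.7 RPKM in outer cells, against 77.2, 81.2, 75.2 and 1146 RPKM in inner cells, so outer cells 02 and 03 were highest for it as well, and its difference of 0.65 became -1.86 without them.

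Basement membrane genes were higher in outer cells in 5 of 6 measured, with a median of 1.47, and 0 were lower. Without outer cell 01, 2 of 6 were higher and the median was 0.52, and without inner cell 03, 3 of 6 were higher and the median was 0.99. Without inner cell 05, 5 of 6 were higher and the median was 2.26. NID2, a linker of laminin and collagen IV, had 98.8, 285, 259, 135 and 0.910 RPKM in outer cells, against 0.264, 0.118, 204 and 0.543 RPKM in inner cells, a difference of 3.97. Outer cell 07 was the exception among outer cells and inner cell 05 among inner cells. LAMA1, a laminin chain, rested on a single cell, with 503 RPKM in outer cell 01 and at most 6.00 RPKM in the other outer cells, against 0.164 to 16.5 RPKM in inner cells. Its difference of 1.17 became -0.27 without outer cell 01. COL4A2, a collagen IV chain, had 95.3, 51.0, 59.5, 19.3 and 0.113 RPKM in outer cells, against 26.7, 0.0862, 36.9 and 0.170 RPKM in inner cells. Without outer cells 02 and 03 the 5 of 6 count was the same and the median was 2.22, whereas the hypoblast list then had 4 higher, 2 lower and a median of 0.63. NID2, LAMA1, LAMB1 and COL4A2 are in both lists.

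Junction, pump and water channel genes, which seal the epithelium and fill the cavity, gave 4 higher and 3 lower of 14 measured and a median of 0.57, which became 8 higher, 2 lower and 1.15 without outer cell 02 and 0.27 without inner cell 02. CLDN3, a tight junction protein, had 391, 957, 29.7, 1934 and 1597 RPKM in outer cells, against 36.5, 164, 94.8 and 55.8 RPKM in inner cells, a difference of 2.75. All outer cells except outer cell 03 were above all inner cells. CLDN4 and CLDN6, of the same family, did not differ by 2-fold and were at 93.7 RPKM or more in all 9 cells. The water channels went opposite ways: AQP11 differed by 2.92 and AQP3 by -3.58, with AQP3 at 0.0384, 93.6, 0.584, 0.602 and 31.6 RPKM in outer cells, against 47.0, 30.9, 192 and 92.0 RPKM in inner cells.

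EPCAM was separated. It had 113, 37.7, 65.6, 27.4 and 38.4 RPKM in outer cells, against 2.82, 4.19, 7.74 and 4.84 RPKM in inner cells, a difference of 3.16 at a spread over cells of 0.68. The lowest outer cell was outer cell 06 and the highest inner cell inner cell 05, and the groups did not overlap.

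Hippo and polarity genes, which tell outer from inner cells by their contacts in the mouse, were mostly too low to be measured: 7 of the 21 in the table were, with 1 higher, 2 lower and a median of -0.61, or 0.0389 from the ratio of mean RPKM. LLGL1, a basolateral polarity protein, had 1.93, 29.7, 0.0757, 0.201 and 1.20 RPKM in outer cells, against 55.0, 47.9, 12.7 and 37.5 RPKM in inner cells, a difference of -3.52. Only outer cell 02 was within the inner range. NF2 (merlin), which activates the Hippo kinases at junctions, had 42.6, 35.5, 0.509, 40.6 and 50.2 RPKM in outer cells, against 23.6, 20.7, 0.188 and 21.4 RPKM in inner cells. The difference of 1.01 depended on the single low cell of each group and was -0.06 without inner cell 05.

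Genes of placental hormones and steroids numbered 5 measured of 19 in the table, with 2 higher, 1 lower and a median of -0.37, whose sign changed with the processing. CYP11A1, which makes pregnenolone from cholesterol as the first step of steroid synthesis, had 4.39, 2.40, 0.355, 171 and 179 RPKM in outer cells, against 958, 648, 386 and 109 RPKM in inner cells, a difference of -4.74. Outer cells 06 and 07 overlapped with inner cell 06. PGF, the placental growth factor, had 27.2, 0.579, 0.0441, 68.5 and 57.6 RPKM in outer cells, against 1.76, 0.211, 0.169 and 5.28 RPKM in inner cells, so that outer cells 01, 06 and 07 lay above all inner cells. CGA, the shared chain of chorionic gonadotropin, is listed at 0 in all 9 cells.

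Lysosome and endocytosis genes were the list with the largest share of higher genes among those with 10 or more measured: 8 of 12 were higher in outer cells and 0 lower, with a median of 1.63. Leaving out outer cells 02 and 03 and inner cell 05 gave 10 higher and 0 lower. CTSB, a lysosomal cysteine protease, had 2742, 1043, 1111, 610 and 968 RPKM in outer cells, against 40.6, 2.27, 1307 and 63.7 RPKM in inner cells, a difference of 4.28. Inner cell 05 was again at the level of the outer cells. CTSH, a related protease, had 271, 1.27, 45.8, 119 and 204 RPKM in outer cells, against 1.06, 0.586, 0.206 and 3.11 RPKM in inner cells, with outer cell 02 low. CTSE, an aspartic protease, was separated, but its values in outer cells 02 and 03 were 0.327 and 0.160 RPKM, from 14 and 5 recovered reads, against at most 0.157 RPKM in inner cells.

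Growth factor signalling genes differed in both directions. FGFR4, a fibroblast growth factor receptor, had 216, 0.993, 226, 122 and 121 RPKM in outer cells, against 0.461, 1.12, 0.150 and 0 RPKM in inner cells, a difference of 5.63. Outer cell 02 alone was at the level of the inner cells. Of the 10 measured FGF and ERK pathway genes, 4 were higher and 4 lower, against 18.8% and 35.7% of all measured genes. ETV4, a target of FGF signalling, had 0.136, 144, 2.64, 29.7 and 41.7 RPKM in outer cells, against 140, 27.9, 352 and 371 RPKM in inner cells. ID3, a target of BMP signalling, had 6.34, 120, 323, 4.501 and 3.01 RPKM in outer cells, against 8.68, 61.2, 2021 and 42.3 RPKM in inner cells, and was highest in outer cells 02 and 03 and inner cell 05. Of 3 measured WNT pathway genes 2 were lower, the WNT receptor ligase ZNRF3 and the scaffold AXIN1, with differences of -3.09 and -2.54.

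Immediate early and stress genes gave 3 higher and 5 lower of 13 measured, near the shares over all measured genes (18.8% higher and 35.7% lower). ZFP36 (tristetraprolin), an immediate early protein that destabilizes mRNAs, had 0.286, 925, 926, 7.11 and 150 RPKM in outer cells, against 0.844, 0.217, 0.248 and 0.611 RPKM in inner cells, and all outer cells except outer cell 01 were above all inner cells. PHLDA3, a p53-induced repressor of AKT, showed the largest difference of all separated genes at -6.35. It had 1.03, 0.293, 0.0446, 3.10 and 0.280 RPKM in outer cells, against 69.8, 317, 208 and 79.5 RPKM in inner cells. All 4 inner cells of letter B, inner cell 05 included, were far above all outer cells, unlike for the epiblast genes. In the other inner cells of the same stage, PHLDA3 was at most 0.154 RPKM in letter G and at 4.77 to 393 RPKM in letter H. RBM38, an RNA-binding protein that is also a p53 target, was separated too, at 0 to 1.02 RPKM in 4 outer cells and 22.5 RPKM in outer cell 07, against 109, 232, 70.2 and 182 RPKM in inner cells. CDKN1A, the best known p53 target, was at most 0.186 RPKM in outer cells, against 106, 0.178, 4.35 and 1.20 RPKM in inner cells, and did not count as measured.

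Metabolic genes differed in both directions, as did all measured genes (18.8% higher and 35.7% lower). Of 14 measured glycolysis genes 5 were higher and 2 lower, and of 19 respiratory chain genes 4 were higher and 3 lower. PGAM1, a glycolytic enzyme, was separated at 590, 475, 14.3, 250 and 205 RPKM in outer cells, against 710, 713, 722 and 625 RPKM in inner cells, and the inner cells were nearly alike. Of 12 measured cholesterol synthesis genes 5 were lower and 2 higher, and 2 of the lower ones were separated, MVK and SQLE. SQLE, which makes the first oxygenated intermediate of the sterol pathway, had 0, 1.34, 0.812, 0.0273 and 0.0486 RPKM in outer cells, against 27.7, 9.76, 8.69 and 1.37 RPKM in inner cells, with inner cell 06 almost level with outer cell 02. Mitosis genes gave 3 higher, 0 lower and 7 between, and of 4 measured DNA methylation genes 2 were higher, UHRF1 and DNMT3B, with DNMT3B at 345, 30.8, 430, 21.9 and 61.5 RPKM in outer cells, against 30.7, 17.3, 54.1 and 20.6 RPKM in inner cells.

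**Figure D4:**
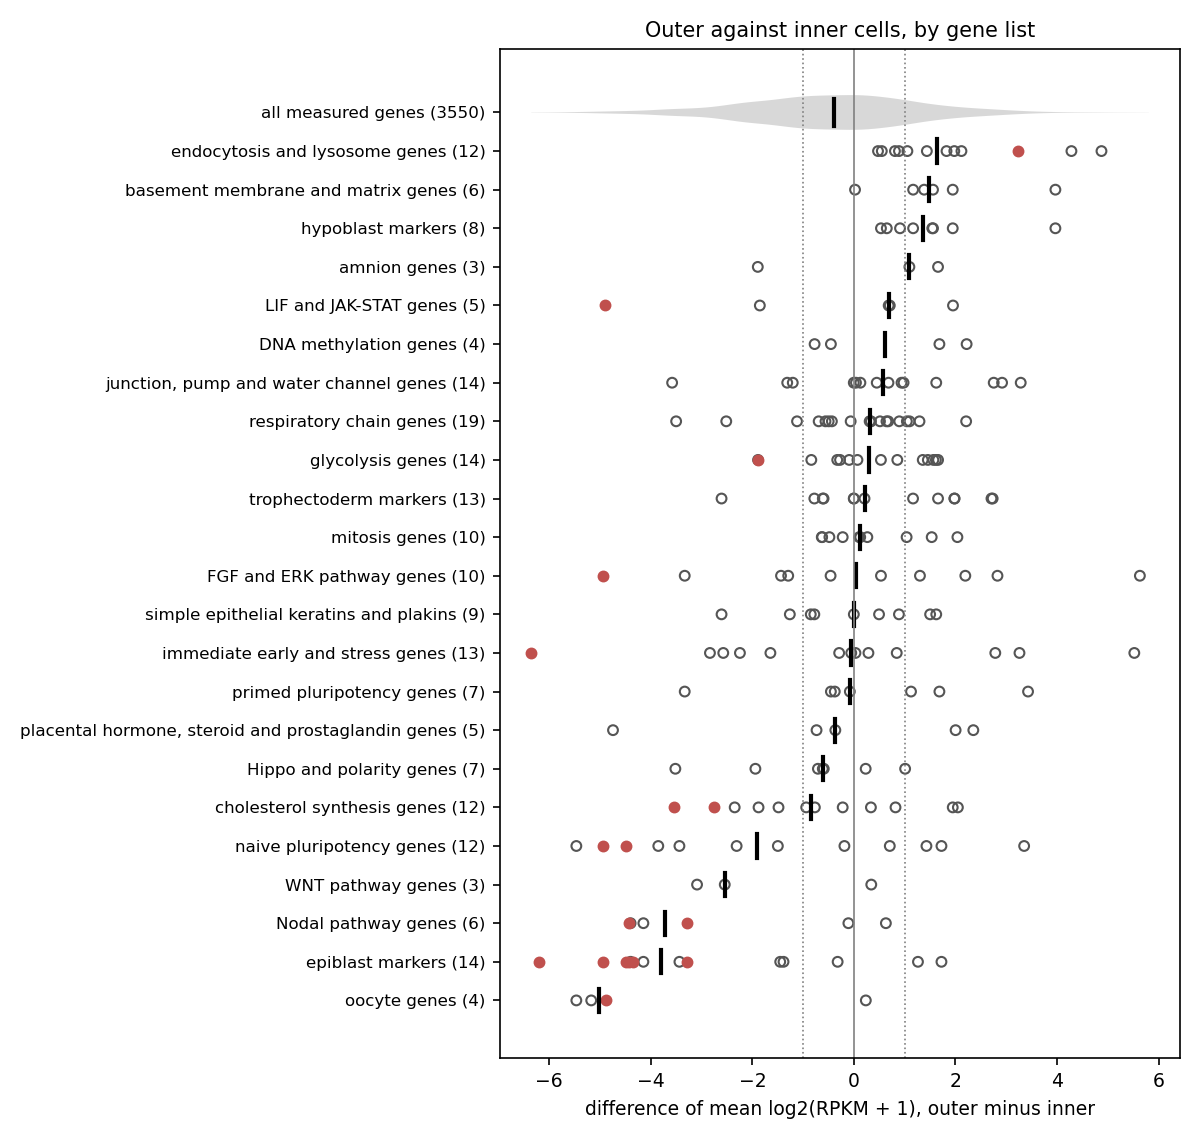
Difference of mean log2(RPKM + 1), outer minus inner, for the measured members of each gene list with at least 3 measured (number in brackets), ordered by list median (black bar), with the distribution over all measured genes in grey at the top. Filled red points are genes whose outer and inner cells do not overlap, open points overlap, and dotted lines mark 2-fold. The oocyte, epiblast and Nodal lists have medians of -5.03, -3.79 and -3.72, and the lysosome, matrix and hypoblast lists of 1.63, 1.47 and 1.35, against -0.40 over all measured genes. The epiblast and Nodal lists share members, as do the matrix and hypoblast lists.

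Beyond the lists, the separated genes of largest difference are described as found. Among the 12 highest in outer cells, FAM127A, derived from a retrotransposon gag gene, had 26.0, 277, 250, 546 and 233 RPKM in outer cells, against 12.1, 0.478, 0.314 and 4.07 RPKM in inner cells, a difference of 5.81, though near-identical relatives of it could share its reads. IDH2, the mitochondrial isocitrate dehydrogenase, had 361 to 1217 RPKM in outer cells, against 1.28 to 338 RPKM in inner cells. OS9, a lectin of protein quality control in the endoplasmic reticulum, had 63.6 to 170 RPKM in outer cells, against 2.18 to 38.5 RPKM in inner cells. The others, by falling difference, were ANKZF1, TMEM214, KANK4, CTSE, EPCAM, DENND4B, ZFYVE1, DIRC2 and RPS27A, with differences of 5.30 to 2.66. For KANK4, CTSE, DENND4B and DIRC2 at least 1 outer cell was below 1 RPKM, so their separation rests on small values. RPS27A, a ribosomal protein gene with many processed copies, was at 25.3 to 416 RPKM in outer cells and 5.01 to 14.0 RPKM in inner cells, but at 2066 to 6329 RPKM in the inner cells of the letters G and H.

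Among the 12 lowest, ZSCAN10, a zinc finger factor of pluripotent cells, had 0.275 to 1.19 RPKM in outer cells, against 430, 572, 2.83 and 229 RPKM in inner cells, with inner cell 05 low as for VENTX. EPHB6, an ephrin receptor without kinase activity, behaved alike, at most at 0.805 RPKM in outer cells, against 248, 234, 1.28 and 193 RPKM in inner cells. In DOM3Z (DXO), an enzyme that removes faulty mRNA caps, and in GTPBP3, which modifies mitochondrial tRNAs, all inner cells of letter B were high. DOM3Z had at most 0.376 RPKM in outer cells, against 167, 44.3, 124 and 130 RPKM in inner cells. GTPBP3 had at most 0.728 RPKM in outer cells, against 39.8, 207, 51.9 and 67.4 RPKM in inner cells. The same-stage inner cells of the letters G and H did not all share these levels. ZSCAN10 was at most 14.8 RPKM in letter G and 0 in letter H, and EPHB6 at most 0.0323 and 5.31 RPKM. GTPBP3 had a median of 0 in both letters and at most 8.83 and 54.3 RPKM. DOM3Z had medians of 72.0 RPKM in letter G and 3.80 RPKM in letter H. The others were TOR2A, RBM38, CMTM7, FKBP1B, CCDC107 and C12orf52, with differences of -5.87 to -5.12, and PHLDA3 and VENTX, given above. FKBP1B was separated by 4 recovered reads in inner cell 03 (0.217 RPKM), against 3 in outer cell 01 (0.215 RPKM). Of the 92 separated lower genes 38 had an inner cell under 5 RPKM, and of the 20 separated higher genes 7 had an outer cell under 5 RPKM.

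Over all 3550 measured genes Pearson's r was 0.54 to 0.66 among inner cells and 0.37 to 0.61 among outer cells. Pearson's r between cells was 0.63 to 0.66 among inner cells 02, 03 and 06, 0.54 to 0.56 between these and inner cell 05, and 0.61 between outer cells 06 and 07. Outer cell 01 reached at most 0.41 and outer cell 03 at most 0.44 with any other cell. Outer cells 06 and 07 were at 0.52 to 0.57 with the inner cells, above their 0.37 to 0.50 with the other outer cells. These values describe genes within 9 cells that share a letter, and genes are not independent replicates.

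**Figure D5:**
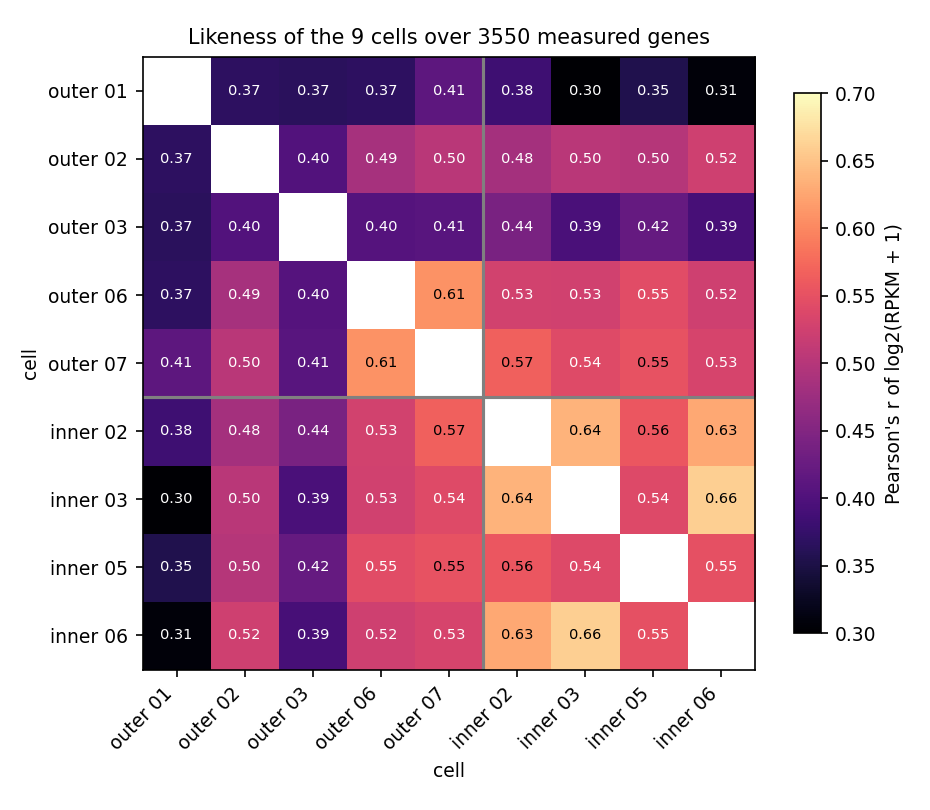
Pearson's r of log2(RPKM + 1) over the measured genes between each pair of the 9 cells, outer cells first, with grey lines between outer and inner cells and the diagonal left blank. Inner cells 02, 03 and 06 form the most alike set at 0.63 to 0.66, and outer cells 01 and 03 are the least like all others.

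The early blastocyst (about day 5) has the nearest like comparison, 6 outer and 5 inner cells with the letter A, and it shares no cell with the one above. GATA3 differed by 1.98 in the middle and by 4.42 in the early blastocyst, CLDN3 by 2.75 in the middle and 4.16 in the early, and KRT18 by -0.78 in the middle and 2.50 in the early. KRT18 was at 5432 to 17299 RPKM in early outer cells and 879 to 4543 RPKM in early inner cells, with no overlap. The epiblast list had a median of -3.79 in the middle blastocyst, against -0.19 in the early with 2 higher and 5 lower of 14 measured, and POU5F1 differed by -1.39 in the middle, against -0.11 in the early. Of the 24 separated genes of largest difference in the middle blastocyst, 10 differed by 2-fold the same way in the early one, 5 by 2-fold the other way, and PHLDA3 alone was separated in both. The 5 were EPCAM (3.16 in the middle and -1.38 in the early blastocyst), FAM127A (5.81 and -1.14), OS9 (3.41 and -1.60), CMTM7 (-5.54 and 2.101) and CCDC107 (-5.12 and 1.18). PHLDA3 was at most at 0.170 RPKM in early outer cells and at 0.531 to 694 RPKM in early inner cells. No share or median over all genes was computed for the early blastocyst, so its counts and medians have no background here. Whether the comparisons differ was not tested, and stage and letter cannot be told apart.

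Cumulus cell and sperm markers were at or near 0, whereas single blood and fibroblast markers were present in a few cells. No cumulus cell or sperm marker reached 5 RPKM in any of the 9 cells, and their summed levels were at most 0.0328 and 0 RPKM in outer cells and 0 and 0 RPKM in inner cells. Fibroblast markers summed to 0.0810 to 54.8 RPKM in outer cells and 0.0353 to 14.4 RPKM in inner cells, and blood markers to 0.0596 to 91.8 RPKM and 0.0279 to 23.5 RPKM, with at most 1 marker of a list at 5 RPKM or more in any cell. These were CD14 in outer cell 07 (91.8 RPKM) and CD68 in inner cell 02 (22.1 RPKM) of the blood list, and TAGLN in outer cell 07 (54.7 RPKM), COL1A2 in outer cell 03 (37.6 RPKM) and inner cell 02 (13.99 RPKM) and THY1 in inner cell 06 (9.06 RPKM) of the fibroblast list. The hemoglobin genes HBB and HBA1 and the fibroblast matrix genes DCN and LUM were listed at 0 in all 9 cells. The part of these transcripts in the results was not tested.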

How the data were processed

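The authors deposited 1 value per gene symbol and cell. Its unit is not named and was read as RPKM from the deposited values, whose low values rise in steps set by gene and by cell. For 12180 genes (75.9%) the steps gave whole reads within 0.05, which served for depth and for the recovered reads given for single genes. Per the submitters' processing notes the tools included TopHat2 2.1.0, HTSeq, FastQC and DESeq2, and the genome build is not given in the sources used here. Strand use in counting is not given either, so overlapping genes may share reads. Each library was made by poly(A) tailing and PCR, with no molecular identifiers mentioned.

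Differences of mean log2(RPKM + 1) were computed in Python 3.11.15 with NumPy 2.4.6 and pandas 2.3.3, checked on simulated data. No test was planned or made, as no label names an embryo. Cells and gene lists were chosen with earlier results of these data known. Genes named are the 12 separated genes of largest difference in each direction, 4 measured genes of largest difference per main list and 2 per other list, and a fixed set of lineage genes; 2 genes of these lists count in the list totals but are not reported here. LEFTY1, FOXH1, TFCP2L1, DPPA2, CLDN4, CLDN6 and CDKN1A were added after their values were seen. Alternatives changed the pseudocount, filter, scaling and summary, and left out each cell.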

Additional observations from a re-analysis of the deposited data

Results flagged for a closer look

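A single cell far from the others of its group was looked for in 160 groups of values (the named genes and the main lists, outer and inner cells apart), and 33 had one by Dixon's 95% limits, or 20.6%, where chance gives about 5%. Dixon's limits assume a bell-shaped spread, which values of single cells need not have. Of the 33, 8 were inner cell 05, 7 outer cell 03, 5 each outer cells 02 and 07, 3 each outer cell 01 and inner cell 06, and 2 inner cell 02. No cause was tested.

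Inner cell 05 was far below the other inner cells for VENTX (3.47 RPKM), EPHB6 (1.28 RPKM), SOCS1 (0.799 RPKM) and NF2 (0.188 RPKM). It was far above them for NID2 (204 RPKM), SOX17 (176 RPKM), CD24 (93.3 RPKM) and TFAP2A (34.2 RPKM). Outer cell 03 was far below the other outer cells for KRT19 (3.25 RPKM), PGAM1 (14.3 RPKM), ANKZF1 (9.21 RPKM) and NF2 (0.509 RPKM), and far above them for GATA4 (309.6 RPKM), COL4A1 (40.8 RPKM) and CMTM7 (11.2 RPKM). Outer cell 02 was low for FGFR4 (0.993 RPKM) and AQP11 (0.355 RPKM) and high for OVOL1 (39.0 RPKM), ATP1B1 (31.9 RPKM) and PDGFRA (14.0 RPKM).

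Outer cell 07 was high for CDX2 (85.2 RPKM), TLE6 (72.1 RPKM), RBM38 (22.5 RPKM) and CCDC107 (7.27 RPKM) and low for NID2 (0.910 RPKM). Outer cell 01 was high for LAMA1 (503 RPKM) and PRKCZ (40.2 RPKM) and low for FAM127A (26.0 RPKM). Inner cell 06 was high for APOA1 (1146 RPKM) and PIM1 (20.0 RPKM) and was marked for PGAM1 (625 RPKM, the next inner cell at 710 RPKM), where the inner cells are nearly alike. Inner cell 02 was high for PTTG1 (8.66 RPKM) and UHRF1 (10.4 RPKM).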

How the results depend on the processing

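Of 1748 values of named genes under the alternatives, 59 moved by more than the spread over cells with no change of sign. Signs changed in 33 values, 9 of 6 genes that differed by 2-fold as reported and 24 of 7 genes under 2-fold. No paired analysis was possible because the labels do not say that numbers shared by outer and inner cells pair them. The count of higher and lower genes with overlap allowed was 358 and 671 at a pseudocount of 10 RPKM, 1282 and 1908 with no filter, 1001 and 719 from the ratio of mean RPKM, and 1000 higher at a mean of 5 RPKM and 432 higher at 20 RPKM in 3 cells. The higher share of these calls was 34.5% as reported, 58.2% from the ratio of means and 45.3% with median-of-ratios size factors, where the median over all genes was 0.17 and -0.07. Separated genes, higher and lower, numbered 47 and 182 with no filter, 45 and 59 with size factors, 36 higher at a mean of 5 RPKM and 57 lower at 20 RPKM. They numbered 133 and 233 without outer cells 02 and 03, and 217 and 377 without inner cell 05 as well, choices made after seeing the data, and 30 to 57 and 125 to 190 without each cell in turn, since fewer cells overlap less. The median of the epiblast markers was -5.21 and -2.11 at pseudocounts of 0.1 and 10 RPKM, -1.997 with no filter and -5.33 without the 3 cells. The placental list had 2.00 at a mean of 5 RPKM, 0.86 without outer cells 02 and 03, and -1.03 to 1.00 without each cell. The junction list had 1.20 from the ratio of means, 1.04 without the 3 cells and 0.27 to 1.15 without each cell. Of the genes at 2-fold, signs changed for S100A6 (-1.26 as reported, 0.0486 from the ratio of means, 1.26 without outer cells 02 and 03 and without the 3 cells), SOX17 (-1.90 and -0.0916 in those), NDUFV1 (0.24 without the 3), and among leave-outs LAMA1 (-0.27 to 1.86), APOE (-0.36 to 1.85) and NF2 (-0.0578 to 1.97). Of the genes under 2-fold, signs changed for APOA1 (0.65 as reported, -1.86 and -2.20 in those, -0.29 without outer cell 02 or 03), KRT18 (-0.78, 0.77 and 0.83 in those, 0.0778 from the ratio of means, 0.0676 without outer cell 03), TEAD4 (-0.61, 0.0389 from the ratio of means, 0.13 without outer cell 01), OVOL1 (-0.74, 0.12 from the ratio of means), PDGFRA and ATP1B1 (each to just under 0) and KRT8, which began at -0.00. The cause was not tested.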
